A study of Mus musculus with 2 samples.

Results

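The genes described here are the nuclear genes for subunits of respiratory complexes I, III and IV, for subunits of ATP synthase (complex V), and for cytochrome c. They were chosen by symbol from the gene table: symbols that start with Ndufa, Ndufb, Ndufc, Ndufs, Ndufv, Uqcr, Cox4i, Cox5, Cox6, Cox7, Cox8 or Atp5, together with Cyc1 and Cycs, without Ndufaf symbols and symbols that hold -ps. The rule used no expression value. It gave 87 of the 55341 symbols, on 88 of 55450 rows, because Atp5o has 2 identifiers, of which the one with more counts was used. By name, 41 belong to complex I, 9 to complex III, 19 to complex IV, 17 to complex V and 1 is cytochrome c. Ndufa4 is counted under complex I by its name, although its protein is now placed with complex IV, and Cox7a2l, a factor that joins complexes III and IV into supercomplexes, is counted under complex IV.

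The respiratory chain sits in the inner mitochondrial membrane. Complex I takes electrons from NADH and complex II takes them from succinate. Coenzyme Q carries them to complex III, cytochrome c carries them on to complex IV, and complex IV passes them to oxygen. Complexes I, III and IV pump protons, and ATP synthase uses the returning protons to make ATP. Complexes I, III, IV and V each combine nuclear subunits with a few that mitochondrial DNA encodes, so their assembly draws on both genomes. Hk2, the gene deleted in this study, encodes hexokinase 2, which catalyses the first step of glycolysis and can bind the outer mitochondrial membrane. Microglia, the resident macrophages of the brain, use both glycolysis and oxidative phosphorylation.

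The study profiled single cells from perfused mouse brain (C57BL/6), sorted as CD11b high CD45 low, on day 3 of microglial repopulation. Libraries were made with the 10x 3′ v3 chemistry, which counts each captured transcript near its 3′ end by a unique molecular identifier (UMI). Each genotype has 1 library: Hk2 fl/fl, in which both Hk2 alleles carry loxP sites and no Cre is named, and Hk2 cKO mice, which carry the same floxed alleles with Cx3cr1CreER, a Cre that tamoxifen switches on and that the Cx3cr1 gene drives. The protocol names 100 µg tamoxifen in corn oil, injected into the peritoneum on 2 consecutive days in the first postnatal days or otherwise as indicated. Whether the Hk2 fl/fl mice were also injected, the depletion method, the age of the mice, the number of mice per library and the floxed exons are not given in the sources used here. With 1 library per genotype there is no replicate spread and no test was possible. Values are summed UMIs scaled to a total of 1000000 (CPM, counts per 1000000), with 95% exact Poisson intervals, and these cover counting error only. Statements of difference below compare these libraries, not the genotypes in general.

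The libraries held 37476201 UMIs in 3089 barcodes (Hk2 fl/fl) and 32896996 UMIs in 2607 barcodes (Hk2 cKO), and 2 barcodes occurred in both. After filtering, 2826 and 2301 cells remained, in 18 clusters. Of these, 10 clusters were microglia-like, with 2500 Hk2 fl/fl and 2022 Hk2 cKO cells. In these cells all 16 microglial markers stood at 10 CPM or more in each library (summed 32359 and 34944 CPM), the neutrophil markers summed to 313 and 264 CPM, and the neuronal markers to 3.44 and 4.04 CPM. Hk2 was detected at 166 CPM (161.8 to 170.6) in Hk2 fl/fl and 43.6 CPM (41.2 to 46.1) in Hk2 cKO microglia-like cells; the 3′ tag may lie outside the deleted part. Neutrophil-like cells held 133 and 77.9 CPM of Hk2 and endothelial-like cells 142 and 34.0 CPM. Microglial RNA was present in both of those classes: 4 microglial markers summed to 1158 and 1024 CPM in the first and to 1915 and 1870 CPM in the second, where microglia-like cells held 2694 and 2750 CPM. Cx3cr1, the locus that carries the Cre, stood at 1303 and 677 CPM.

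The Hk2 fl/fl library fell into parts by the mitochondrial gene mt-Nd3 and Gm28438, a gene model that copies mitochondrial sequence. In Hk2 fl/fl microglia-like cells, 1221 cells (48.8%) held UMIs of mt-Nd3 without Gm28438 and 496 cells (19.8%) held Gm28438 without mt-Nd3. In the Hk2 cKO library, 1719 cells (85.0%) held Gm28438 without mt-Nd3. Genotype values of the sum and of the genes named for their difference in microglia-like cells are therefore also given for the Hk2 fl/fl cells of each kind, set against the Hk2 cKO cells with Gm28438 only. These 3 sets of cells had median depths of 10967, 10896.5 and 12865 UMIs, in that order.

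Most of the 87 genes were abundant in microglia-like cells. Throughout, a gene is called past 25% where the higher of the values compared is at least 25% above the lower, after adding 1 CPM to each. A gene was called measured where its mean over both libraries was at least 10 CPM, and 74 of the 87 passed. The 74 had a median level of 220 CPM in the Hk2 fl/fl library and 217 CPM in the Hk2 cKO library, against medians of 36.3 and 35.5 CPM for all 7818 measured genes. In both libraries 71 stood at 50 CPM or more and 65 at 100 CPM or more. Together the 87 genes took 632734 and 539964 UMIs, or 1.91% (1.90 to 1.91) and 1.88% (1.88 to 1.89) of all UMIs. They share short transcripts: the median longest transcript of the 74 was 1025.5 bases, against 3326.5 for all measured genes, and 35 of them were at most 1000 bases long, against 5.69% of measured genes. The 74 lie on 19 chromosomes. UMI counts from 3′ ends carry no length term, so levels are compared between genes on that scale only.

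The most abundant genes by complex were these. In complex I, Ndufa4 stood at 486 CPM in Hk2 fl/fl and 487 CPM in Hk2 cKO cells, and Ndufa13 (GRIM-19, an accessory subunit) at 434 and 414 CPM. In complex III, Uqcrh, the hinge protein next to cytochrome c1, stood at 460 and 433 CPM, and Uqcrq at 388 and 404 CPM. Uqcrfs1, the Rieske iron-sulfur protein, was lower at 129 and 126 CPM, and Cyc1, cytochrome c1 itself, at 106 and 108 CPM. In complex IV, Cox4i1 stood at 968 and 878 CPM and Cox8a at 766 and 789 CPM. In complex V, Atp5e, the epsilon subunit, stood at 715 and 706 CPM, and Atp5b, the catalytic beta subunit, at 544 and 519 CPM. Cycs, cytochrome c, stood at 132 and 152 CPM. The complexes kept close to constant shares of these UMIs: complex I took 32.3% and 32.7%, complex III 11.8% in each library, complex IV 26.6% and 26.5%, complex V 28.6% and 28.2%, and cytochrome c 0.694% and 0.808%.

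For the subunits that exist as isoforms, microglia-like cells carried mostly the widely expressed form. Cox4i1 (968 and 878 CPM) far exceeded Cox4i2, known as the lung form, at 0.905 and 0.906 CPM. Cox6b1 stood at 442 and 425 CPM, and Cox6b2, known from testis, at 2.69 and 2.05 CPM. Cox8a (766 and 789 CPM) was accompanied by no UMI of Cox8b in Hk2 fl/fl and 1 UMI in Hk2 cKO cells. A count of 0 here allows up to 3 UMIs of the total, or 0.0905 CPM in Hk2 fl/fl and 0.104 CPM in Hk2 cKO cells, and Cox8c and Cox7b2 were at 0 in both. The other sets had the same order. Cox7a2 stood at 355 and 358 CPM against 4.98 and 5.36 CPM for Cox7a1, the heart and muscle form. Cox7b stood at 313 and 300 CPM. Ndufa4 exceeded Ndufa4l2, a gene known to be induced under low oxygen, which stood at 0.754 and 0.801 CPM. Of the 3 genes that encode the same mature c subunit of ATP synthase, Atp5g1 (306 CPM in each library) and Atp5g3 (224 and 218 CPM) were abundant and Atp5g2 was low (6.85 and 8.78 CPM). Cox6a1 stood at 275 and 255 CPM, and Cox6a2, the heart and muscle form, at 7.21 and 15.2 CPM, the member that differed most between the libraries.

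**Figure D1:**
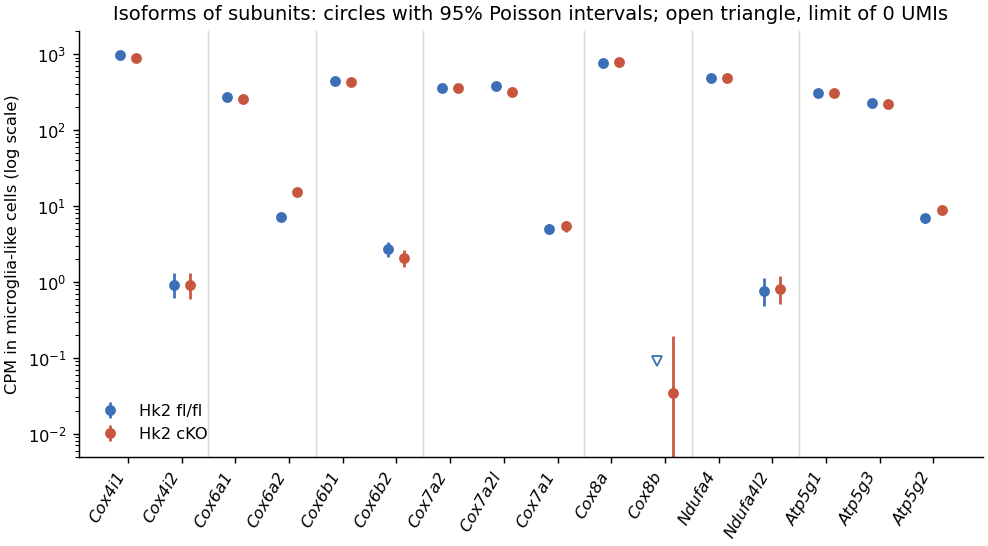
CPM (log axis) of subunit isoforms in microglia-like cells of the Hk2 fl/fl and Hk2 cKO libraries; bars are 95% exact Poisson intervals and the open triangle is the limit that 0 UMIs allow. Each set pairs at least 1 abundant gene with a far lower one, and Cox6a2 (7.21 and 15.2 CPM) shows the widest gap between libraries among genes with UMIs in both.

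The 13 genes below the 10 CPM limit were Atp5g2, Atp5s (4.16 and 3.83 CPM), Cox4i2, Cox6b2, Cox7a1, Cox7b2, Cox8b, Cox8c, Ndufa4l2 and the 4 gene models Cox6c2, Ndufa11b, Ndufb4c and Ndufs6b, which the annotation lists as processed pseudogenes and whose reads may be shared with their parent genes. Cox6b2 and Cox8b had higher levels in another cell type. In the choroid plexus or ependymal-like cells, of which there were only 13 in Hk2 fl/fl and 6 in Hk2 cKO, Cox6b2 had 24 and 5 UMIs (319 and 152 CPM) and Cox8b had 9 and 16 UMIs (119.7 and 485 CPM).

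Across the 10 microglia-like clusters the summed share ran from 1.27% to 3.01% of UMIs in the Hk2 fl/fl library and from 1.16% to 2.85% in the Hk2 cKO library, a log2 range of 1.246 and 1.30. The respiratory chain genes, their assembly factors and mitochondrial genes were left out of the genes used for clustering, although genes that vary together with them were not. The lowest share was in cluster 5, led by Klf2, Klf6 and Rhob (401 and 215 cells), at 1.27% and 1.16%. Next came cluster 7, led by the interferon-induced genes Ifit3, Rsad2 and Isg15 (76 and 278 cells), at 1.36% and 1.38%, and cluster 6, led by Rcan1, Gadd45b and chemokines (289 and 305 cells), at 1.58% and 1.57%. Clusters 3, 4 and 2 held intermediate shares. They were led by Adamts1 and Csf1 (1.73% and 1.58%), by Dlg4 and Txnip (1.80% and 1.69%) and by the mitotic genes Top2a and Mki67 (1.88% and 1.92%).

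The higher shares lay in clusters of several kinds. Cluster 1, with the chemokine genes Ccl7 and Cxcl2, held 2.17% and 2.14%, and cluster 10, with mt-Rnr1 and Apoe, held 2.22% and 2.11%. Cluster 8, with the mitotic genes Cdc20 and Hmmr, held 2.30% and 2.34%. The highest share was in cluster 0, with Cdk1 and Ube2c (165 and 303 cells), at 3.01% and 2.85%. Its cells were shallow, with median depths of 6944 and 6287 UMIs, against 10193.5 and 12018 over all microglia-like cells. Cluster 5, with the lowest share, had median depths of 6876 and 8518 UMIs. The part of depth in these shares was not tested. The order of the 10 clusters was alike in the libraries except that clusters 1 and 10 changed places, and the counting intervals of these 2 overlapped in Hk2 cKO, as did those of clusters 6 and 3. The relation to mitosis was not uniform: of the 3 clusters led by G2/M genes, cluster 2 lay in the middle of the order.

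**Figure D2:**
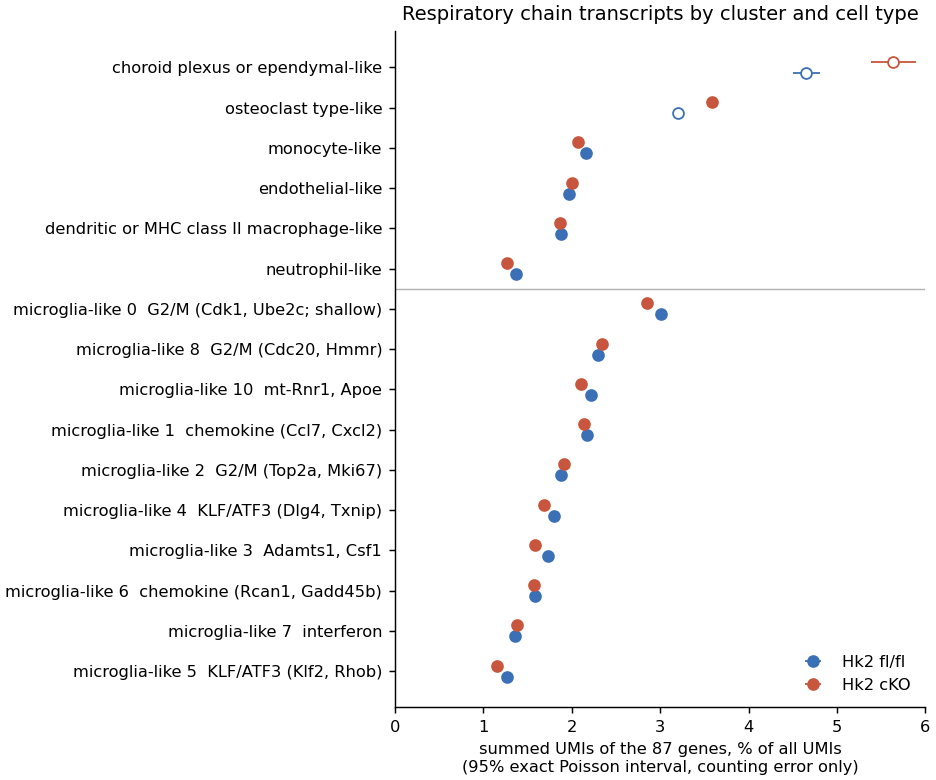
Summed UMIs of the 87 genes as a percentage of all UMIs in each microglia-like cluster (below the line) and each other named cell type (above it), for the Hk2 fl/fl and Hk2 cKO libraries; bars are 95% exact Poisson intervals and open circles mark fewer than 20 cells. Microglia-like clusters run from 1.27% and 1.16% in cluster 5 to 3.01% and 2.85% in cluster 0, and the libraries lie close together in each.

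Cells were then brought to equal depth. Each microglia-like cell was thinned to 5000 UMIs, which left 2278 and 1841 cells and dropped 222 and 181 shallower ones. The median cell then held 90 member UMIs in the Hk2 fl/fl library and 88 in the Hk2 cKO library, and the middle 8 in 10 cells ranged from 57 to 130 and from 51 to 139. In cluster 5 the median cell held 62 and 56, in cluster 7 it held 63 in each library, in cluster 8 it held 115 and 112, and in cluster 0 it held 152 and 144. By the median cell, clusters 1 (107) and 10 (104) changed places in Hk2 fl/fl. The variance over all cells was 8.96 and 12.0 times the mean, and within cluster 0 it was 2.45 and 3.59 times the mean.

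Over the 10 clusters the share of the respiratory chain genes moved against the early-response genes and with the ribosome. Its Pearson correlation with the summed level of 14 KLF, ATF3 and early-response genes (Klf2, Klf4, Klf6, Atf3, Egr1, Fos, Jun and others) was -0.96 in Hk2 fl/fl and -0.93 in Hk2 cKO, and without cluster 0 it was -0.96 and -0.90. That list stood at 14490 and 13893 CPM in cluster 5, at 13101 and 11297 CPM in cluster 7, at 2519 and 1319 CPM in cluster 10 and at 387 and 380 CPM in cluster 0. The correlation with the ribosomal protein share was 0.92 in each library, and 0.82 and 0.86 without cluster 0. With a list of homeostatic microglial genes, which shares Jun with the early-response list, it was -0.95 and -0.94. With the G2/M genes it was 0.52 and 0.49, and with the S-phase genes 0.54 and 0.36. With the mitochondrially encoded subunits it was 0.68 and 0.84, and 0.92 and 0.87 without cluster 0. With a list headed by Apoe it was -0.79 and -0.57, with chemokine genes -0.66 and -0.47, and with interferon-induced genes 0.09 and 0.66. With median depth it was 0.07 and 0.04 over all 10 clusters, but 0.52 and 0.64 without cluster 0. The 10 points of a library come from 1 set of mice and are shares of the same totals, so they are described here with no test. Early-response genes are known to be induced during tissue dissociation as well as in tissue, and their part in these values was not tested.

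**Figure D3:**
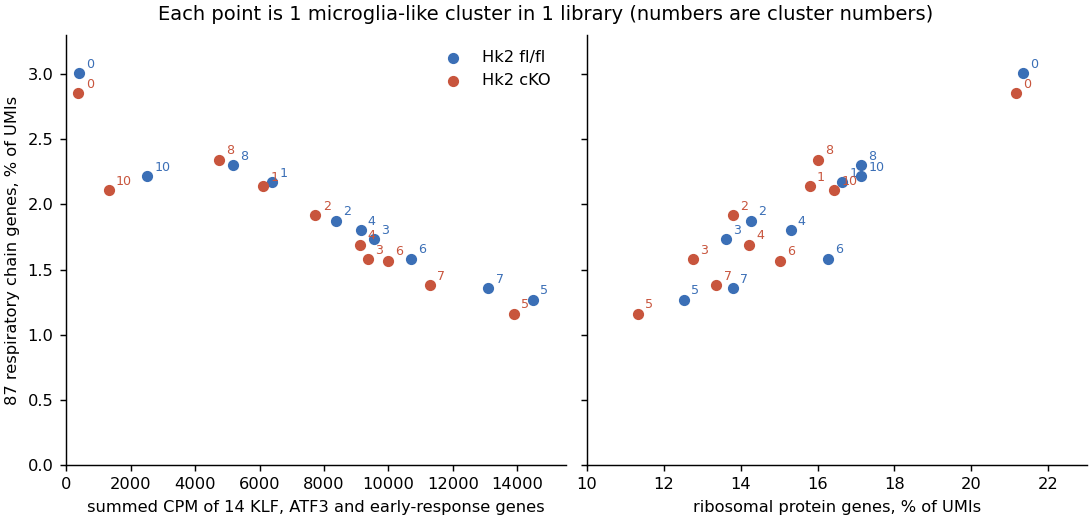
Summed share of the 87 genes (% of UMIs) against the summed CPM of the 14 KLF, ATF3 and early-response genes (left) and against the ribosomal protein share (right, axis starting at 10%); each point is 1 microglia-like cluster in 1 library, with its cluster number. The points fall from cluster 0 (387 and 380 CPM) to cluster 5 (14490 and 13893 CPM) on the left and climb on the right.

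Individual genes covered very different ranges across these clusters. Cycs varied most in Hk2 fl/fl cells, from 51.4 CPM in cluster 6 to 313 CPM in cluster 0, a 6.09-fold range, and in Hk2 cKO cells from 64.6 CPM in cluster 5 to 277 CPM in cluster 0, 4.29-fold. Ndufa12, an accessory subunit of complex I, ranged 4.02-fold (43.6 to 175 CPM) and 4.94-fold (30.9 to 153 CPM). Ndufa5 ranged 4.09-fold and 3.95-fold, Atp5g1 4.03-fold and 3.48-fold, and Ndufs5 3.52-fold in each library. A second set stayed within a narrow range. Ndufa6, another accessory subunit of complex I, ranged from 123 to 209 CPM (1.69-fold) and from 118 to 187 CPM (1.59-fold). Atp5l, the g subunit of ATP synthase, ranged 1.49-fold and 1.63-fold, Uqcrh 1.61-fold and 1.66-fold, Uqcrfs1 1.47-fold and 1.78-fold, and Cox7a2l 1.70-fold and 1.75-fold. These genes were picked for their ranges after the values were seen.

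**Figure D4:**
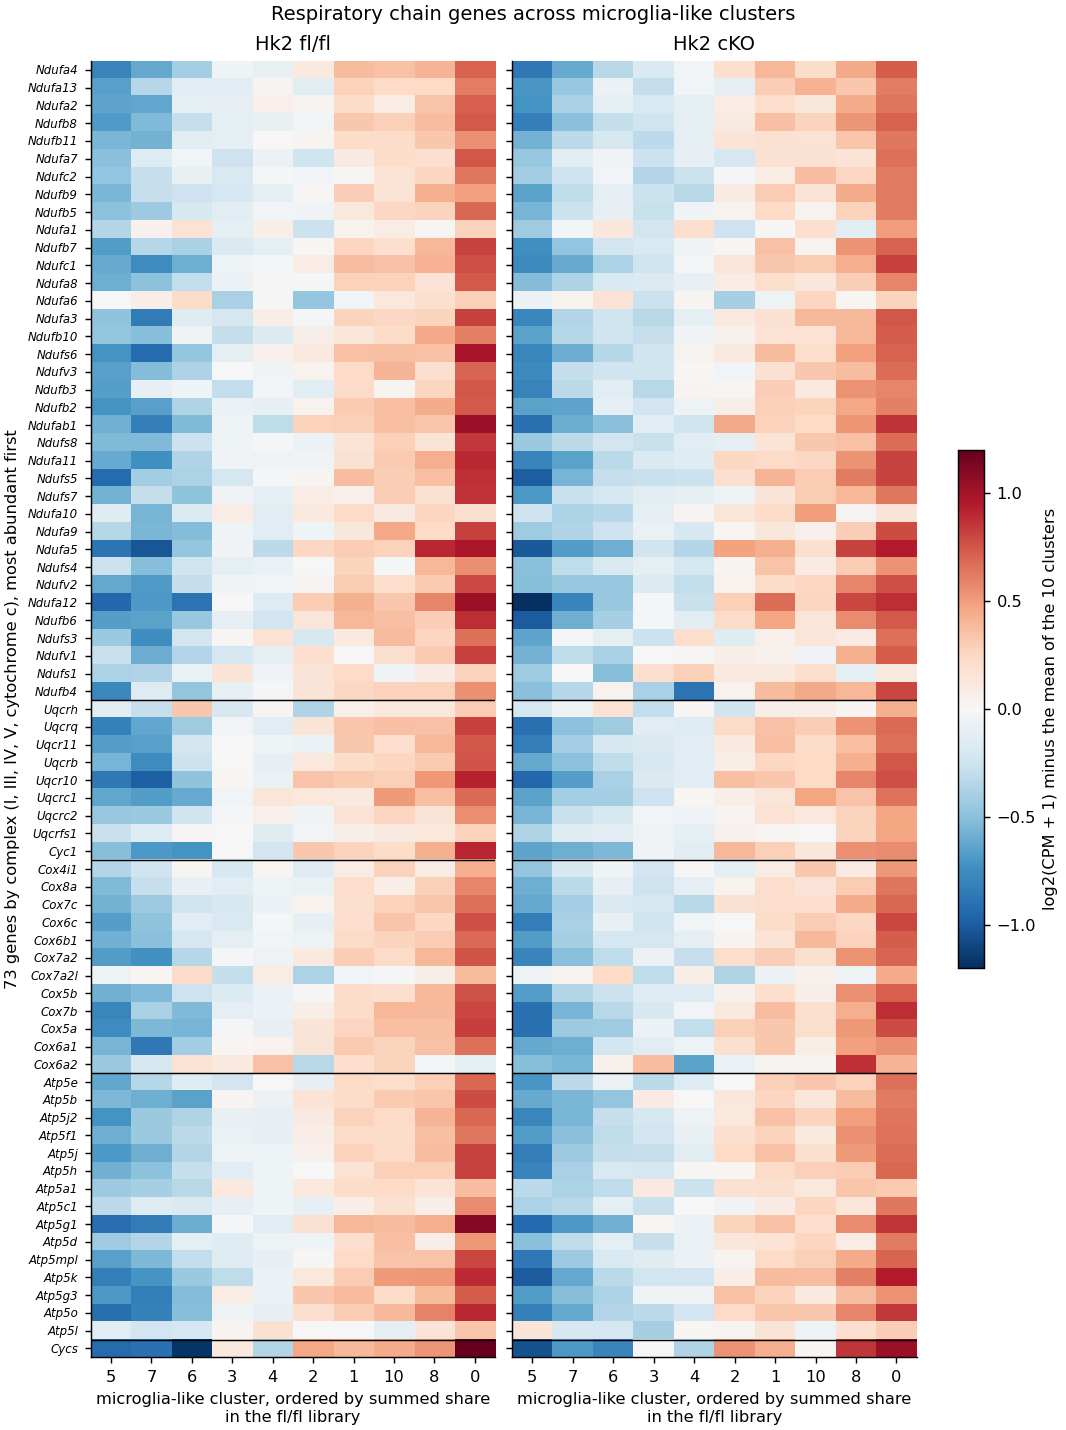
Log2(CPM + 1) of 73 of the 74 measured genes in each microglia-like cluster, minus the gene's mean over the 10 clusters, by complex and ordered by abundance; columns run from the cluster with the lowest summed share in Hk2 fl/fl (5) to the highest (0), in each library. Most rows pass from low to high together; Ndufa6, Uqcrh, Cox7a2l and Atp5l stay pale, and Cycs has the widest range in Hk2 fl/fl (51.4 to 313 CPM).

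Promoter sequences are printed here for genes of the wide and the narrow set, since the clusters showed most respiratory chain genes moving together. NRF1, GABPA and YY1 are transcription factors known to bind promoters of nuclear respiratory genes. The windows ran from 250 bases before to 50 after the RefSeq start (build GRCm38.p6), and 65 of the 87 genes had one. On both strands, the NRF1 letters TGCGCA occurred in 15 of the 65 windows (23.1%), against 8.79% of the 27025 gene windows, and the NRF1 letters CATGCGC, which can overlap them, in 13 (20%) against 4.41%. The ETS and GABPA letters CCGGAAG occurred in 14 (21.5%) against 9.93%, the YY1 letters AAGATGG in 10 (15.4%) against 7.28%, and the Sp1 letters GGGCGG in 26 (40%) against 38.2%. Median GC content was 57% in these windows and 53.3% in all. The 5 stretches below lie before the start, are read 5′ to 3′ along the gene, all on the minus strand, and have motif matches on either strand in capitals. Cycs (chr6:50566570-50566642) and Ndufs5 (chr4:123718226-123718345) ranged widely across clusters, and Ndufa6 (chr15:82354323-82354442), Atp5l (chr9:44920873-44920992) and Cox7a2l (chr17:83514334-83514453) did not.
Cycs: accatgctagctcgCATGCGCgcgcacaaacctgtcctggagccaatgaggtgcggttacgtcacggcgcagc
Ndufs5: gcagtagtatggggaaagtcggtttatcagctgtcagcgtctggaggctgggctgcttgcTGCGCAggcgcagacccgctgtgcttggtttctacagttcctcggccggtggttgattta
Ndufa6: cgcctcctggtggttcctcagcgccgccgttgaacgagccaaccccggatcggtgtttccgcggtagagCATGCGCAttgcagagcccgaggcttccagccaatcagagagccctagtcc
Atp5l: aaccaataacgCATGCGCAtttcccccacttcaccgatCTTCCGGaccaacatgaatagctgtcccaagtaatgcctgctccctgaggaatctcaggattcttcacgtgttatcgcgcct
Cox7a2l: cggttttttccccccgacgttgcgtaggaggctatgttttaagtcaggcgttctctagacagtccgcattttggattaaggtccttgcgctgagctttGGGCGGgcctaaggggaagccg
NRF1 letters start 59 bases before the start of Cycs, 99 before Ndufs5, 82 before Ndufa6 and 239 before Atp5l, where an ETS match lies downstream. The stretch of Cox7a2l holds only an Sp1 match, and it lies before a RefSeq start inside the annotated gene (chr17:83501918-83517330). For Cycs and Cox7a2l the bases after the RefSeq start were not found in the first 400 bases of a GENCODE transcript. The 5 genes shown are a choice from those named for their ranges, and among them an NRF1 match stood in genes of both sets. Of the other genes named for their ranges, Ndufa5 had NRF1 letters in its window. Ndufa12 and Atp5g1 of the wide set and Uqcrh and Uqcrfs1 of the narrow set had none. These matches are descriptions of the letters, and binding was not measured.

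The Klf2-high cluster 5 was set against all other microglia-like cells to show which genes made up its low share. It was picked because its summed share was lowest, so its counts and its direction are descriptions. The sum was 1.98% in the other cells and 1.27% in cluster 5 of Hk2 fl/fl, and 1.93% and 1.16% in Hk2 cKO, log2 ratios of -0.64 and -0.74. In Hk2 fl/fl 72 of 73 measured genes were lower, 65 of them past 25% (21.8% of all measured genes), and in Hk2 cKO 73 of 74 were lower, 69 past 25% (21.8% of all). Over all measured genes 3185 of 7914 and 2952 of 7876 were lower. The median log2 ratio was -0.68 and -0.75, against 0.13 and 0.20 over all genes, -0.33 and -0.44 over ribosomal protein genes, and -0.34 and -0.46 over other genes with transcripts up to 1000 bases. All complexes took part about equally in Hk2 fl/fl, with medians of -0.68, -0.67, -0.66 and -0.70 for complexes I, III, IV and V.

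The genes of cluster 5 differed in how far they departed from the rest. Cycs went from 140 CPM in other cells to 61.6 CPM in Hk2 fl/fl and from 158 to 64.6 CPM in Hk2 cKO (log2 -1.17 and -1.28). Ndufa12 went from 98.1 to 43.6 CPM and from 99.8 to 30.9 CPM (-1.15 and -1.66). Ndufs5 stood at 118 and 56.5 CPM in Hk2 fl/fl and at 130 and 58.0 CPM in Hk2 cKO. The genes of the narrow set lay closer to the other cells, to different degrees. Ndufa6 stood at 163 and 172 CPM in Hk2 fl/fl and at 155 and 148 CPM in Hk2 cKO. Cox7a2l stood at 376 and 372 CPM, and at 318 and 303 CPM. Uqcrh (464 and 423 CPM, and 437 and 368 CPM; log2 -0.13 and -0.25) and Uqcrfs1 (131 and 107 CPM, and 128 and 97.7 CPM; -0.29 and -0.39) were lower in cluster 5 of each library. Outside the 87 genes, the 4 complex II genes were lower in each library, as were the 6 carriers and channels for ADP, phosphate and anions and all 12 and 10 measured mitochondrially encoded subunits (median -0.56 and -0.54). Of the coenzyme Q synthesis genes 5 of 7 and 6 of 9 were higher, beside 4729 of 7914 and 4924 of 7876 of all measured genes.

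Clusters led by G2/M genes, called dividing here, were compared with all other microglia-like clusters, called non-cycling, in each library. The non-cycling set was not free of cells in cycle. Its cluster 3 held 1018 and 1111 CPM of S-phase genes, against 713 and 732 CPM in cluster 8, a G2/M cluster. At 5000 UMIs per cell, 809 Hk2 fl/fl and 509 Hk2 cKO microglia-like cells held at least 3 G2/M genes. The 3 clusters led by G2/M genes (574 and 553 cells) held 2.13% and 2.29% of UMIs in the respiratory chain genes, against 1.83% and 1.73% in the other microglia-like cells, log2 ratios of 0.22 and 0.41. In Hk2 fl/fl 68 of 73 measured genes were higher, beside 3778 of 7857 over all genes, and 18 were past 25% (17.8% of all measured genes). In Hk2 cKO 72 of 74 were higher, beside 3363 of 7723 over all genes, and 57 were past 25% (20.9% of all). The median log2 ratio of the genes was 0.26 and 0.43, against -0.02 and -0.08 over all genes and 0.06 and 0.19 over ribosomal protein genes. Over other genes with transcripts up to 1000 bases it was 0.10 and 0.23. The Hk2 fl/fl count past 25% thus lay near the background, while the direction was shared by nearly all of the respiratory chain genes.

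Much of that difference came with cluster 0, which held 165 of the 574 Hk2 fl/fl cells and 303 of the 553 Hk2 cKO cells. Without it, the dividing cells held 1.99% and 2.06% (log2 0.12 and 0.25). Of the respiratory chain genes 62 of 73 and 69 of 74 were higher, beside 4194 of 7924 and 4025 of 7897 over all genes. Past 25% were 9 of the 73 and 26 of the 74 (18.2% and 22.2% of all measured genes). Cluster 0 alone, picked because its share was highest, stood at 3.01% against 1.87% in the other cells of Hk2 fl/fl and at 2.85% against 1.80% in Hk2 cKO. There 73 of 73 and 74 of 74 genes were higher, beside 2755 of 7311 and 2625 of 7255 over all genes. In each library 69 of the respiratory chain genes were past 25% (24.1% and 22.0% of all). The median log2 ratio in cluster 0 was 0.72 and 0.68, against 0.49 and 0.55 for ribosomal protein genes and -0.30 and -0.35 for all genes. For other genes with transcripts up to 1000 bases it was 0.49 and 0.52, and for longer ones -0.39 and -0.43. At 5000 UMIs per cell its median cell held 152 and 144 member UMIs, the most of the 10 clusters. Thinning keeps each cell's expected share, so these values restate the share by which the cluster was picked. The part of depth in that share was not tested.

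Cytochrome c led the genes that were higher in dividing cells. Cycs stood at 112 CPM in non-cycling and 185 CPM in dividing Hk2 fl/fl cells (log2 0.72), and at 123 and 231 CPM in Hk2 cKO cells (0.91). Without cluster 0 its log2 ratios were 0.55 and 0.79. Ndufa5, a complex I subunit of the peripheral arm, went from 90.3 to 139 CPM (0.62) and from 89.2 to 159 CPM (0.83). Ndufab1, which is both a complex I subunit and the mitochondrial acyl carrier protein, went from 105 to 146 CPM (0.48) and from 113 to 190 CPM (0.74). The acyl carrier protein serves fatty acid synthesis in mitochondria. Cyc1 stood at 94.6 and 136 CPM in Hk2 fl/fl and at 94.4 and 144 CPM in Hk2 cKO cells.

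At the other end were genes of the narrow set. Ndufa6 stood at 168 CPM in non-cycling and 151 CPM in dividing Hk2 fl/fl cells (-0.15), and at 157 and 148 CPM in Hk2 cKO cells (-0.08). Cox7a2l had log2 ratios of -0.13 and -0.02, and Uqcrh of -0.17 and 0.04. Without cluster 0 all 3 were lower in dividing cells in both libraries, with log2 ratios of -0.24 and -0.25 for Ndufa6, -0.24 and -0.26 for Cox7a2l, and -0.25 and -0.15 for Uqcrh. With cluster 0 included, most genes of each complex were nonetheless higher in dividing cells. The counts were 34 of 37 and 36 of 37 in complex I, and 8 of 9 and 9 of 9 in complex III. In complex IV they were 10 of 11 and 11 of 12, and in complex V 15 of 15 in each library. The 4 complex II genes, the 5 assembly and inhibitor genes of complex V and the 6 carriers and channels were all higher in dividing cells of each library. Mitochondrially encoded subunits were higher in 10 of 12 and 9 of 11 cases, with medians of 0.08 and 0.12.

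Other cell types in the sort gave a frame for these levels. Neutrophil-like cells (80 and 88 cells) held 1.37% and 1.27% of UMIs in the respiratory chain genes, against 1.91% and 1.88% in microglia-like cells, log2 ratios of -0.47 and -0.57. Lower values were found for 69 of 73 and 72 of 74 measured genes, beside 5994 of 7654 and 5990 of 7428 over all genes. Past 25% were 51 of the 73 and 60 of the 74, where 63.5% and 69.4% of all measured genes were also lower by that much. The median of -0.51 and -0.61 lay beside -0.53 and -0.68 over all genes. Neutrophil marker genes took 260389 and 306420 CPM of these cells, and with those genes left out of the totals the summed log2 ratio was -0.04 in each library. In neutrophil-like cells with no UMI of the 4 microglial markers (34 and 57 cells) the summed log2 ratio was -0.96 and -0.95.

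Within that difference the genes were spread widely. The values of single genes use totals that include the neutrophil marker genes. Ndufs3, a core subunit of complex I, stood at 58.7 CPM in microglia-like and 31.6 CPM in neutrophil-like cells of Hk2 fl/fl, and at 68.0 and 27.1 CPM in Hk2 cKO. Atp5g1 stood at 306 and 163 CPM, and at 306 and 129 CPM. Ndufa10 stood at 113 and 57.6 CPM, and at 106 and 47.2 CPM. On these totals Ndufb7 was higher in neutrophil-like cells of each library: 207 and 268 CPM in Hk2 fl/fl, and 196 and 255 CPM in Hk2 cKO (log2 0.37 and 0.38). Ndufb3 (0.20 and -0.03) and Ndufa1 (0.14 and -0.14) had opposite signs in the libraries. Mitochondrially encoded subunits were lower in neutrophil-like cells in 12 of 12 and 10 of 10 cases, with medians of -0.99 and -1.31.

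The remaining cell types held few cells. Endothelial-like cells (55 and 94) held 1.97% and 2.00%, monocyte-like cells (64 and 21) 2.16% and 2.08%, and dendritic or MHC class II macrophage-like cells (54 and 34) 1.88% and 1.87%. Osteoclast type-like cells (14 and 21) held 3.20% and 3.59%. The choroid plexus or ependymal-like cells (13 and 6) had the highest share, 4.65% (4.50 to 4.81) and 5.64% (5.38 to 5.90). Choroid plexus epithelium is known for dense mitochondria that power ion transport. In those cells Atp5g1 reached 1662 and 2062 CPM, and Cox4i1 2274 and 2608 CPM.

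Between the genotypes the summed level of these genes in microglia-like cells was nearly level, with a log2 ratio of Hk2 cKO over Hk2 fl/fl of -0.02 (-0.03 to -0.02). Among the 74 measured genes, 33 had a ratio above 0 and 41 below, beside 3040 and 4778 of all 7818 measured genes. The median of the 74 was -0.02, against -0.04 over all measured genes and -0.05 over ribosomal protein genes. Only Cox6a2 was past 25%, while 5.62% of all measured genes were past it. Counting intervals of the ratio lay above 0 for 14 of the 74 genes and below 0 for 22, beside 1201 and 2011 of all 7818 measured genes. By complex the medians were 0.01 (complex I, 21 higher and 16 lower), -0.02 (III, 2 and 7), -0.02 (IV, 6 and 6) and -0.04 (V, 3 and 12). Against the Hk2 fl/fl cells with mt-Nd3 only, the summed log2 ratio was -0.02, and against those with Gm28438 only it was -0.04, with 3 and 1 genes past 25%. Ratios above 0 numbered 40 of 74 against the first and 24 of 74 against the second, so the split into higher and lower genes depended on which Hk2 fl/fl cells were used.

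**Figure D5:**
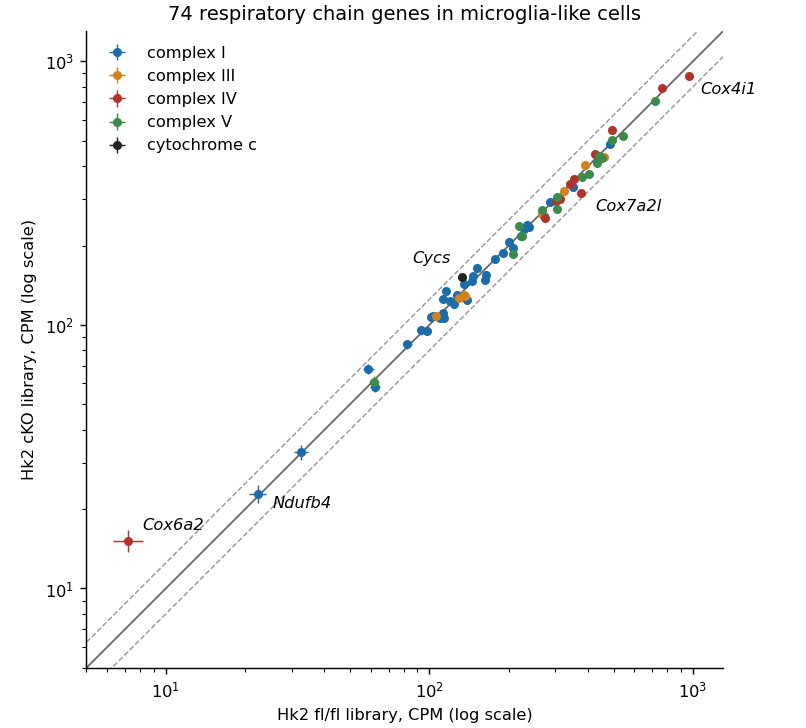
CPM in the Hk2 cKO library against CPM in the Hk2 fl/fl library (both log axes) for the 74 measured genes in microglia-like cells; bars are 95% exact Poisson intervals, the solid line marks equality and the dashed lines a difference of 25%. Cox6a2 (7.21 and 15.2 CPM) lies outside the dashed lines and Cox7a2l (375 and 317 CPM) lies just inside them.

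The heart and muscle isoform Cox6a2 had the widest difference. It had 239 UMIs in Hk2 fl/fl microglia-like cells (7.21 CPM, 6.33 to 8.19) and 436 in Hk2 cKO cells (15.2 CPM, 13.8 to 16.7). The log2 ratio was 0.98, and its interval, taken on the counts without the added 1 CPM, was 0.84 to 1.31. Among clusters, Hk2 fl/fl ranged from 4.84 CPM in cluster 5 to 9.18 CPM in cluster 4, and Hk2 cKO from 8.99 CPM in cluster 4 to 27.7 CPM in cluster 8. Hk2 cKO was thus higher in 9 of the 10 clusters, and cluster 4 held 9.18 and 8.99 CPM. The difference was also there with the Hk2 fl/fl library divided: 7.24 CPM in its mt-Nd3 cells and 8.17 CPM in its Gm28438 cells, against 15.3 CPM in the Hk2 cKO cells with Gm28438 only (0.98 and 0.83). In neutrophil-like cells Cox6a2 had 3 and 14 UMIs (3.39 and 12.2 CPM), and in endothelial-like cells 3 and 12 UMIs (3.78 and 9.47 CPM). The gene (chr7:128205435-128206387, minus strand) lies inside the interval annotated for Itgad on the plus strand (chr7:128154376-128223816), and Itgad had 5 and 2 UMIs. The sources used here do not say whether counting used the strand. Even at this ratio Cox6a2 remained well under Cox6a1, at 275 and 255 CPM.

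Cox7a2l was the lowest ratio. It stood at 375 CPM (369 to 382) in Hk2 fl/fl and 317 CPM (311 to 324) in Hk2 cKO microglia-like cells, a log2 ratio of -0.24 (-0.28 to -0.20), and Hk2 cKO was lower in 10 of 10 clusters (-0.42 to -0.23). Neutrophil-like cells held 249.6 and 178 CPM and endothelial-like cells 394 and 323 CPM. This difference moved with the division of the Hk2 fl/fl library. Hk2 fl/fl cells with mt-Nd3 only held 403 CPM and those with Gm28438 only held 332 CPM, while Hk2 cKO cells with Gm28438 only held 316 CPM. The log2 ratio was therefore -0.35 against the first and -0.07 against the second. The part of that division in the difference between genotypes was not tested.

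Cycs followed the same pattern. It stood at 132 CPM (129 to 136) in Hk2 fl/fl and 152 CPM (147 to 157) in Hk2 cKO cells (log2 0.20, 0.14 to 0.26), and was higher in 8 of 10 clusters. Hk2 fl/fl cells with mt-Nd3 only held 123 CPM, those with Gm28438 only held 154 CPM, and Hk2 cKO cells with Gm28438 only held 155 CPM, so the log2 ratio was 0.33 against the first and 0.00 against the second. The share of cells in G2/M-led clusters, where Cycs was higher, was 21.9%, 27.2% and 28.0% in these 3 sets. Cox6a2, Cox7a2l and Cycs were the 3 genes past 25% against the mt-Nd3 cells, and only Cox6a2 was past it against the Gm28438 cells.

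For some genes, smaller differences had the same sign in all or nearly all clusters. The 10 clusters of a genotype come from the same library, so cluster counts here and above are not repeated observations of the genotype. Over all microglia-like cells, 4778 of all 7818 measured genes were lower in Hk2 cKO. How many of all measured genes were lower in 10 of 10 clusters is not given here, and some genes below were named after their values were seen. Hk2 cKO was lower in 10 of 10 clusters for Cox4i1 (968 and 878 CPM, log2 -0.14), Ndufa6 (164 and 154 CPM), Ndufa7 (239 and 236 CPM) and the ATP synthase subunits Atp5c1 (380 and 363 CPM) and Atp5h (434 and 411 CPM). Against Hk2 fl/fl cells with mt-Nd3 only and against those with Gm28438 only, the ratio was -0.15 and -0.13 for Cox4i1, -0.08 and -0.04 for Atp5c1, and -0.08 and -0.10 for Atp5h. It changed sign for Ndufa6 (-0.17 and 0.02) and Ndufa7 (-0.04 and 0.04), so the direction for these genes depended on which Hk2 fl/fl cells were used. Atp5o stood at 208 and 186 CPM (-0.16; -0.11 and -0.23 against the Hk2 fl/fl cells of each kind). In the other direction, Hk2 cKO was higher in 9 of 10 clusters for Cox7c (495 and 550 CPM, log2 0.15) and Ndufab1 (116 and 134 CPM, 0.20). Against the Hk2 fl/fl cells of each kind these ratios were 0.14 and 0.19 for Cox7c and 0.29 and 0.08 for Ndufab1. Ndufs3 stood at 58.7 and 68.0 CPM (0.21; 0.20 and 0.22 against each kind).

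By state, the genotype difference of the sum had either sign. Hk2 cKO over Hk2 fl/fl was -0.13 in clusters 3 and 5, -0.09 in cluster 4, -0.08 in cluster 0 and -0.07 in cluster 10. It was -0.02 in cluster 1, -0.01 in cluster 6, 0.02 in cluster 7 and 0.03 in clusters 2 and 8. All non-cycling microglia-like cells together held 1.83% and 1.73% (-0.08), and the dividing clusters together held 2.13% and 2.29% (0.11). The dividing clusters differed in makeup: cluster 0 gave 165 of the 574 cells in Hk2 fl/fl and 303 of the 553 in Hk2 cKO. With cluster 0 left out the dividing cells held 1.99% and 2.06% (0.05). In neutrophil-like cells the ratio was -0.12 and in endothelial-like cells 0.02.

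Other genes of the pathway gave a similar picture between genotypes. Of the 4 complex II genes 2 were higher and 2 lower, with Sdha at 105 and 101 CPM and Sdhb at 156 and 167 CPM. Assembly factors were divided likewise: 7 of 11 measured complex I factors, 1 of 3 complex III factors, 9 of 18 complex IV factors and 2 of 5 complex V factors and inhibitors were higher, with medians from -0.04 to 0.02. None of these was past 25%. Of 9 measured regulators of mitochondrial transcription and biogenesis 2 were higher and 7 lower, and 1 was past 25%, Esrra, which encodes the nuclear receptor ERR alpha (22.6 and 16.7 CPM, log2 -0.41). Its ratio was -0.48 against Hk2 fl/fl cells with mt-Nd3 only and -0.14 against those with Gm28438 only. Nrf1 stood at 26.1 and 22.2 CPM.

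The mitochondrially encoded subunits, which assemble with the nuclear ones, were mostly lower in the Hk2 cKO library, and they are the genes among which the Hk2 fl/fl cells were divided. Summed, they stood at 18642 and 15513 CPM in microglia-like cells, and 10 of 12 measured genes lay below 0, at a median log2 ratio of -0.19. Counting the 5 gene models that copy mitochondrial sequence along with them, the sums were 18715 and 15806 CPM. mt-Nd1 stood at 3776 and 2841 CPM, mt-Nd4 at 3691 and 2943 CPM and mt-Cytb, the complex III subunit, at 6046 and 5415 CPM. The exceptions were mt-Atp8 (157 and 193 CPM) and mt-Nd6 (29.1 and 35.9 CPM), and mt-Nd3 itself stood at 145 and 1.88 CPM. Without mt-Nd3, the sum was 19343 CPM in Hk2 fl/fl cells with mt-Nd3 only, 18677 CPM in those with Gm28438 only and 15988 CPM in the Hk2 cKO cells with Gm28438 only (log2 -0.27 and -0.22). The ratio was -0.39 and -0.42 for mt-Nd1, -0.36 and -0.23 for mt-Nd4, and -0.19 and -0.12 for mt-Cytb. The mitochondrial ribosomal RNAs went the other way, at 12815 and 14235 CPM. The 87 nuclear genes had 1.02 UMIs for each mitochondrially encoded one in Hk2 fl/fl and 1.21 in Hk2 cKO cells. Other mitochondrially encoded subunits had far lower counts than mt-Cytb. Among them mt-Co1 stood at 834 and 735 CPM, mt-Atp6 at 281 and 248, mt-Co2 at 32.0 and 26.4 and mt-Co3 at 12.6 and 11.8. Whether reads of these genes were lost in counting was not tested, so the sum and the ratio describe counted UMIs only. Neutrophil-like cells showed the same direction, at 9189 and 6144 CPM for the mitochondrially encoded sum.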

How the data were processed

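Reads were demultiplexed with bcl2fastq and counted with Cell Ranger 3.1.0 against GRCm38, per the submitters' processing notes. The authors deposited raw UMI counts per gene and cell barcode, 1 matrix per library. The strand setting and the counting of introns are not given in the sources used here. Cells passed the filter when they had 500 or more genes and no more than 10% of UMIs from mitochondrial genes (91.5% and 88.3% of barcodes). Scrublet called 2 and 1 doublets (0.0708% and 0.0435%), against 64 and 42 from an assumed rate of 0.8% per 1000 cells. Its calls were therefore not used and doublets were kept. Leaving out the 64 and 42 highest scores was an alternative. The median depth of these cells was 9934 and 11732 UMIs.

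Both libraries were clustered together with scanpy 1.11.5 (igraph 0.11.9, 2000 variable genes without the members, their assembly factors and mitochondrial genes, 30 components, 15 neighbours, resolution 0.8), and clusters were named from marker lists. Counts were summed per library and cluster and scaled to CPM. Log2 ratios were taken after adding 1 CPM, over genes whose mean was 10 CPM or more. Intervals of ratios were taken on the counts without that 1 CPM, so at low levels they are not centred on the ratio. Intervals were computed with scipy 1.17.1, and edgeR 4.0.16 in R 4.3.3 gave the alternative TMM scaling. Only the calculation of log2 ratios and their intervals was tested on simulated counts. The members, lists and comparisons were chosen with earlier results of these data known. Members were named as the 2 most abundant of each complex, the 3 highest and 3 lowest ratios of the genotype, G2/M and neutrophil comparisons, all isoform sets, Cycs, Cyc1, Uqcrfs1 and any member past 25%; others were named after their values were seen. A member that this rule picks is not reported here by name. Coordinates are from GENCODE M21 (GRCm38), and promoters from RefSeq on GRCm38.p6.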

Additional observations from a re-analysis of the deposited data

How the results depend on the processing

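No setting adds a replicate to the 1 library per genotype, and counting intervals do not cover that limit. No paired analysis was possible because each genotype has 1 library and its replicate number carries no pairing. All values here are log2 ratios unless counts are named. The genotype ratio of the sum (-0.0218) was -0.0328 without mitochondrial and ribosomal protein genes, -0.0020 as a mean over cells, -0.0791 without dividing cells, -0.0395 with Gm28438-only Hk2 fl/fl cells, -0.0020 with TMM scaling and -0.0455 as a mean within clusters. The genotype median (-0.0160) changed sign as a mean over cells (0.0108), with mt-Nd3-only cells (0.0035) and with TMM scaling (0.0038). It was -0.0270 without mitochondrial and ribosomal protein genes, -0.0083 thinned, -0.0046 over every member, -0.0679 without dividing cells, -0.0336 with Gm28438-only cells and -0.0293 as a mean within clusters. The count past 25% (1) was 0 among genes at 50 CPM or more, 2 over every member and 3 with mt-Nd3-only cells. The ratio of dividing over non-cycling cells (0.2193 in Hk2 fl/fl, 0.4069 in Hk2 cKO) was 0.2312 and 0.4466 without mitochondrial and ribosomal protein genes, 0.4151 and 0.6284 as a mean over cells, 0.3782 and 0.5773 thinned, 0.2714 and 0.4370 with stricter cell filters, 0.2281 and 0.4177 without likely doublets, 0.1564 and 0.3300 at the lower and 0.1786 and 0.2473 at the higher clustering resolution, 0.3401 and 0.4531 with all variable genes, 0.2904 and 0.4700 with dividing cells called one by one, 0.1210 and 0.2544 without cluster 0, and 0.2031 and 0.4981 with TMM scaling. The neutrophil ratio (-0.4736 and -0.5710) was -0.6083 and -0.7201 without mitochondrial and ribosomal protein genes, -0.6335 and -0.8258 as a mean over cells, -0.5749 and -0.6953 thinned, -0.4267 and -0.5114 with stricter cell filters, -0.7063 in Hk2 cKO without likely doublets, -0.4414 and -0.4853 at the higher resolution, -0.4403 and -0.5264 with all variable genes, and -0.9610 and -0.9527 in cells without 4 microglial markers. It was -0.0390 and -0.0435 with neutrophil marker genes left out of the totals, and -0.0637 and 0.0009 with TMM scaling, a change of sign in Hk2 cKO. The range over clusters (1.2463 and 1.3003) was 1.4255 and 1.5065 without mitochondrial and ribosomal protein genes, 1.3379 and 1.3829 as a mean over cells, 1.2779 thinned (Hk2 fl/fl), 1.3009 and 1.1945 with stricter filters, 1.2779 and 1.2271 without likely doublets, 0.9697 and 1.0782 at the lower resolution, 1.3097 at the higher (Hk2 fl/fl), 1.1646 and 1.1588 with all variable genes, and 1.6031 and 1.8332 with TMM scaling. The mean within clusters, leaving out cluster 0 and leaving out neutrophil marker genes were chosen after the data were seen. The causes of these shifts were not tested.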
